A study of Mus musculus with 7 samples.

Results

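The interleukin-6 (IL-6) family of cytokines was followed through 10 genes in mouse hearts, 5 that encode ligands (Il6, Lif, Osm, Il11 and Ctf1) and 5 that encode receptor chains (Il6ra, Il6st, Lifr, Osmr and Il11ra1). They were chosen by name, as the rows of the deposited table that carry these symbols, and all 10 were found among its 23420 rows. RNA came from flash-frozen ventricle of 7 mice aged 3 to 6 weeks, in tissue that another label calls whole heart. All 7 animals were labelled Pdcd1-/-, so by label the controls too lack the gene for PD-1, a receptor that restrains T cells. The 4 controls were Ctla4+/+, and the 3 mice with immune checkpoint inhibitor (ICI) myocarditis were Ctla4+/-, with a single working copy of the gene for the T cell inhibitor CTLA-4. No animal received a drug, so the model stands on inherited alleles alone, and the labels used here name neither strain nor sex.

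Cytokines of this family share the signalling chain gp130, encoded by Il6st. IL-6 and IL-11 first bind a receptor of their own, encoded by Il6ra and Il11ra1, and then a pair of gp130 chains. Leukaemia inhibitory factor (Lif) and cardiotrophin-1 (Ctf1) bring gp130 together with the chain encoded by Lifr, and mouse oncostatin M (Osm) does so chiefly with the chain encoded by Osmr. The chains activate JAK kinases and the transcription factor STAT3, whose target Socs3 feeds back on gp130. In the heart, gp130 signals are known for protecting cardiomyocytes and for driving their growth, and in excess for remodelling of the muscle.

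Some of the genes are neighbours on the mouse genome (GRCm38, GENCODE M21). Osm (chr11:4236420-4241026) and Lif (chr11:4257557-4272514) are neighbours on the plus strand, 16.5 kb apart with 0 annotated genes between them. Osmr (chr15:6813577-6874969, minus strand) and Lifr (chr15:7090614-7197489, plus strand) are 215.6 kb apart, with 0 protein-coding genes between them. Ctf1 (chr7:127712736-127718192, plus strand) and the related gene Ctf2 on the other strand overlap by 87 bases at their ends. The other members have no further member close by, with Il6 at chr5:30013114-30019981, Il11 at chr7:4772373-4782859, Il6st at chr13:112464070-112510086 and Il11ra1 at chr4:41699989-41769474. Related receptor genes that are not members do lie close to Il6st and Il11ra1. Il31ra (chr13:112519898-112594360, minus strand) follows Il6st, and Cntfr (chr4:41657498-41697089, minus strand) precedes Il11ra1, in both cases without overlap. An antisense gene overlaps Il6ra (chr3:89864059-89913196, minus strand) by 281 bases. The use of strand in the counting is not given in the sources used here, so reads from these overlaps cannot be assigned to either gene with certainty.

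Promoter sequences are shown for the members whose libraries did not overlap between the groups, as far as the RefSeq table (GRCm38.p6) holds them. Each covers the 250 bases before the annotated start, 5′ to 3′. Capitals mark matches to an AP-1 motif (TGANTCA) or to the NF-kappaB motif, factors that act in inflammatory signalling, searched on both strands together with a STAT motif (TTCNNNGAA).
Il6, chr5:30012864-30013113, plus strand: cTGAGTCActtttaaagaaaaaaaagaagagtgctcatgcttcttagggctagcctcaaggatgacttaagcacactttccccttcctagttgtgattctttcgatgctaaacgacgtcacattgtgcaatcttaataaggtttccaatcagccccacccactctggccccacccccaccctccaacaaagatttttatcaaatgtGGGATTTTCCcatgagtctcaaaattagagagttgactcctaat
Lif, chr11:4257318-4257567, plus strand: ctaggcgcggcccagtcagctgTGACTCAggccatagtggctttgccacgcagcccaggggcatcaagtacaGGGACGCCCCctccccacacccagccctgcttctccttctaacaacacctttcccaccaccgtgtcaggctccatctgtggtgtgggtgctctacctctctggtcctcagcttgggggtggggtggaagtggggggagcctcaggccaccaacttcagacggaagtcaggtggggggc
Ctf1, chr7:127712453-127712702, plus strand: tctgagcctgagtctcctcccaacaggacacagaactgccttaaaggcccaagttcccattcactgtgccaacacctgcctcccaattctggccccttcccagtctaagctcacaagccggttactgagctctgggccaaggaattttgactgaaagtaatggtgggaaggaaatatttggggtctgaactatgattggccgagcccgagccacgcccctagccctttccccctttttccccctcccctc
Il6ra, chr3:89913197-89913446, minus strand: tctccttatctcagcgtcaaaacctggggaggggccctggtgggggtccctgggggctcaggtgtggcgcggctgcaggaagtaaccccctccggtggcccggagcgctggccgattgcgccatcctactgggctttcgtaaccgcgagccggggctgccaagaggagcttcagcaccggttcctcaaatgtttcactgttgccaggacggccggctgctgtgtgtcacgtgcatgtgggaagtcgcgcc
The windows of Il6 and Lif each held 1 AP-1 match and 1 NF-kappaB match, and those of Ctf1 and Il6ra held 0 of either. Of the 12 windows of 9 members in the table, the only other match was an AP-1 motif at 1 of the Il11 starts, and the STAT motif was in 0. Of all 32851 windows of this length, 6.75% held the AP-1 motif, 7.25% the NF-kappaB motif and 7.02% the STAT motif. Osm has no entry there. The matches did not overlap each other. A match describes letters and not a site in use.

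The libraries held 20931730 to 39037176 reads assigned to genes, and values below are normalized counts, the reads of a gene divided by the size factor of its library. Reads were assigned to Pdcd1 although all animals were labelled Pdcd1-/-, and a count per gene cannot tell its exons apart, so this gene does not check the labels. Pdcd1 ranged from 2.50 to 244 normalized counts in controls and from 1096 to 1481 in ICI-myocarditis, and Ctla4 from 29.2 to 113 and from 251 to 373. Control 2 stood apart from the other controls. Its 5 T cell marker genes summed to 1158 normalized counts, against 96.3 to 144 in the other controls and 5464 to 8319 in ICI-myocarditis, and no call of a member was lost without it. The heart muscle markers Tnnt2, Tnni3, Actc1, Myh6 and Myl2 summed to at least 652667 normalized counts in every library.

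Among the ligand genes, changes went both ways. Lif and Osm rose, Ctf1 fell, and among the receptor chains Il6ra alone passed the test. Il6st, the shared chain, had the same mean level in both groups to within its spread. With limma on log2(normalized count + 1) and Benjamini-Hochberg adjustment over all 15258 genes tested, 3 members rose (11.7% of all genes did so) and 1 fell (4.00% of all genes did so), of 8 members that could be tested. In either direction that is 4 of 8, against 15.7% of all genes. Without 1 library, the 4 calls became 1 (ICI-myocarditis 2 or 3 left out) or 2 (control 1 or 3 left out). Il6 and Il11 lay under the filter of 10 normalized counts in at least 3 libraries. Osm passed that filter only through its ICI-myocarditis libraries, and without it 3 of 7 tested members were called. The median log2 fold change was 0.31 over the 8 members, -0.00 over the 7 without Osm and -0.02 over all genes tested. The libraries of the groups did not overlap for 4 of the 8 tested members, 3 higher and 1 lower, against 17.3% higher, 11.3% lower and 28.6% in either direction over all genes tested. For Osm, 1 of the 3 higher, this was fixed by the way it passed the filter. Of the 7 tested members without Osm, Lif and Il6ra were higher and Ctf1 was lower with no overlap. Il6, which was not tested, did not overlap either. In whole tissue, a change in the number of cells of a type and a change in RNA per cell cannot be told apart.

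**Figure D1:**
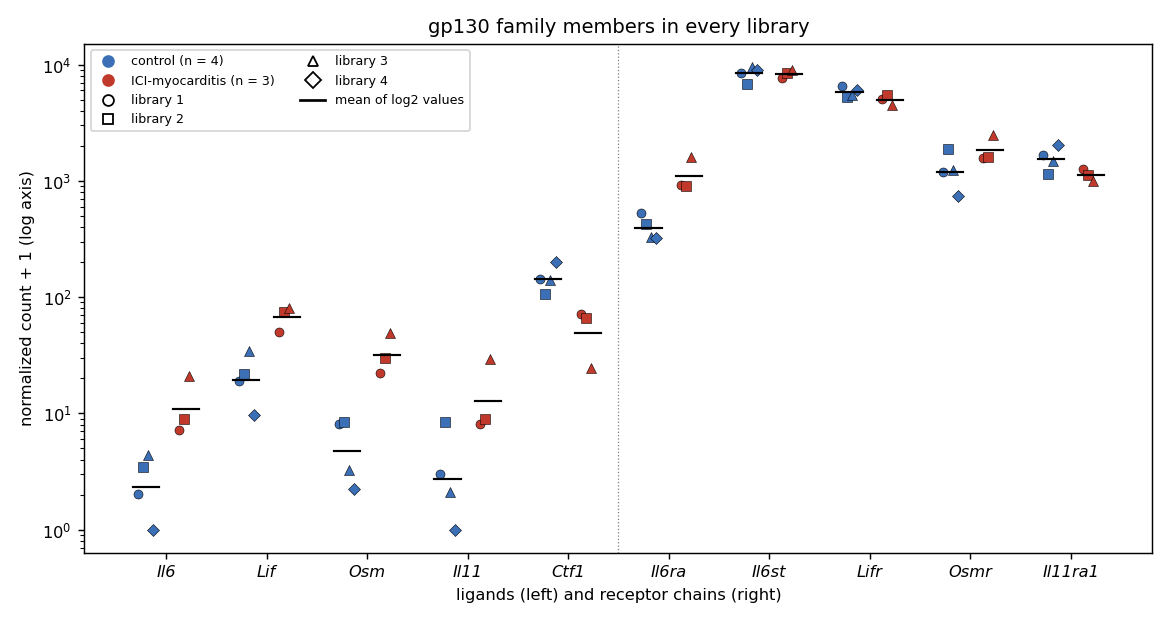
Normalized counts plus 1 (log axis) of the 5 ligand genes (left) and 5 receptor genes (right) in each library, with controls in blue (n = 4), ICI-myocarditis in red (n = 3), symbols for the library number and lines at the mean of log2 values. The colours separate fully for Il6, Lif, Osm, Ctf1 and Il6ra.

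Osm encodes oncostatin M, a cytokine made mainly by activated leukocytes. It had 7.06, 7.40, 2.23 and 1.25 normalized counts in controls 1 to 4 and 21.5, 29.0 and 48.1 in ICI-myocarditis 1 to 3. Every ICI-myocarditis library was above every control. The control values rest on 1 to 7 reads a library, so counting error is large there. The log2 fold change was 2.77 (adjusted p = 0.0163 by limma, SE 0.612), which understates the change of a gene this low, and the ratio of means was 7.33. The call was lost without ICI-myocarditis 2 (adjusted p = 0.0547), without ICI-myocarditis 3 (0.0896) and without control 3 (0.0527), with limma each time.

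Lif encodes leukaemia inhibitory factor, which signals through LIFR and gp130 and is known to act on cardiomyocytes. Controls had 18.1, 21.0, 33.5 and 8.76 normalized counts, and ICI-myocarditis libraries had 49.1, 73.9 and 79.5. The lowest ICI-myocarditis library lay above the highest control, control 3. Lif rose by 1.79 on the log2 scale (adjusted p = 0.0319 by limma, SE 0.469), a ratio of means of 3.32. It missed the threshold without ICI-myocarditis 1, 2 or 3 (limma adjusted p = 0.0543, 0.107 and 0.131) and without control 1 (0.0766).

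Ctf1 encodes cardiotrophin-1, named for its growth effect on heart muscle cells. It was the member that fell. Controls had 142, 105, 138 and 200.2 normalized counts and ICI-myocarditis libraries 70.6, 65.2 and 23.7. All 3 ICI-myocarditis libraries lay below all 4 controls, and ICI-myocarditis 3 was by far the lowest. Ctf1 fell by 1.55 on the log2 scale (adjusted p = 0.0371 by limma, SE 0.423), so that the control mean was 2.75 times the ICI-myocarditis mean. The call was lost with scaling by library total (limma adjusted p = 0.0544), without ICI-myocarditis 2 or 3 (0.0560 and 0.108) and without control 1, 3 or 4 (0.0885, 0.0938 and 0.0720). Without ICI-myocarditis 3 the log2 fold change was -1.06. Ctf2, the neighbour that shares its end, lay at 1.25 to 17.3 normalized counts over all 7 libraries. The 5 heart muscle markers had a median log2 fold change of -0.78 (limma adjusted p from 0.112 to 0.490), and their part in the change of Ctf1 was not tested.

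Il6 and Il11, the genes for the cytokines that use private receptors, were close to the limit of detection. Il6 had 1.01, 2.47, 3.35 and 0 normalized counts in the controls and 6.14, 7.97 and 19.9 in the hearts with ICI-myocarditis, from at most 3 reads in any control and from 6, 11 and 26 reads in ICI-myocarditis. The groups did not overlap. Il11, known for its action on fibroblasts, had 2.02, 7.40, 1.12 and 0 in controls and 7.16, 7.97 and 28.3 in ICI-myocarditis. Control 2 lay above ICI-myocarditis 1, so the Il11 groups overlapped, and ICI-myocarditis 3 alone stood clear. Differences of mean log2(normalized count + 1) were 2.23 for Il6 and 2.25 for Il11, given without a test because both were filtered out. When every gene above 0 was tested, limma's adjusted p was 0.0449 for Il6 and 0.0862 for Il11. In the authors' deposited table, Il6 had a log2 fold change of 2.73 (adjusted p = 0.0406) and Il11 one of 2.48 (adjusted p = 0.0748).

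Il6ra encodes the IL-6 receptor alpha chain, found on some leukocytes and hepatocytes, whose shed form can present IL-6 to cells that carry gp130 alone. Its normalized counts were 533, 428, 327 and 323 in controls and 923, 909.5 and 1607 in ICI-myocarditis. The groups were fully apart, and ICI-myocarditis 3 was again highest. The log2 fold change was 1.49 (adjusted p = 0.00850 by limma, SE 0.275), a ratio of means of 2.85. Il6ra was called in all 18 alternatives run, each library left out included, with log2 fold changes from 1.22 to 1.64 and a largest adjusted p of 0.0330.

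Il6st, which encodes gp130 itself, had the highest level per kb of the receptor genes. Controls had 8401, 6841, 9528 and 9076 normalized counts and ICI-myocarditis libraries 7633, 8499 and 9084. All ICI-myocarditis values fell inside the control range. The log2 fold change was -0.00 (adjusted p = 0.996 by limma, SE 0.223), with a 95% interval from -0.50 to 0.50, so changes within that range cannot be set aside. Lifr had 6591, 5253, 5533 and 6007 in controls and 5065, 5459.9 and 4465 in ICI-myocarditis, with overlapping groups. Its log2 fold change was -0.23 (adjusted p = 0.499 by limma, SE 0.201, 95% interval -0.68 to 0.23).

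Osmr, the chain that pairs with gp130 for oncostatin M, did not pass the test. Controls had 1185, 1875, 1237 and 743 normalized counts, and ICI-myocarditis libraries had 1572, 1594 and 2476. Control 2 exceeded ICI-myocarditis 1 and 2, and the other controls lay below all 3. The log2 fold change was 0.62 (adjusted p = 0.220 by limma, SE 0.312, 95% interval -0.08 to 1.32). Without control 2 it was 0.84 (limma adjusted p = 0.0576), still not called. Il11ra1, the IL-11 receptor gene, had 1669.6, 1139, 1473 and 2046 in controls and 1268, 1113 and 996 in ICI-myocarditis. Here control 2 lay within the ICI-myocarditis range while the other controls lay above it. The log2 fold change was -0.47 (adjusted p = 0.203 by limma, SE 0.226, 95% interval -0.97 to 0.04). Without control 2 it was -0.61 (adjusted p = 0.0629 by limma). Il11ra1 has close copies in the mouse genome, and the rows of Il11ra2, Gm13305 and Gm2002 were listed at 0 in all 7 libraries. Its annotated span also overlaps 6 protein-coding genes, among them Galt on the same strand over 3468 bases. Its count may therefore have lost reads to copies or gained or lost reads where genes overlap, and its level and its place per kb are uncertain.

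**Figure D2:**
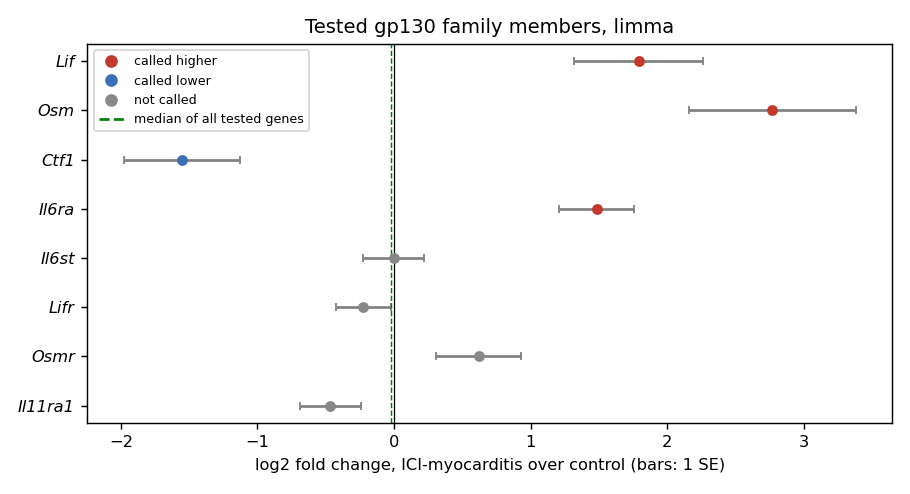
Log2 fold change of ICI-myocarditis over control (points, with bars of 1 SE) for the 8 tested members, on the log2(normalized count + 1) scale, with the median of all tested genes as a dashed line. Lif, Osm and Il6ra lie above 1, Ctf1 lies below -1, and Il6st lies at 0.

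The libraries took different places from member to member. Of the 3 ICI-myocarditis libraries, ICI-myocarditis 3 had the highest value of 7 members (Il6, Lif, Osm, Il11, Il6ra, Il6st and Osmr) and the lowest of the other 3 (Ctf1, Lifr and Il11ra1). ICI-myocarditis 1 was the lowest for 6 members and the highest for Ctf1 and Il11ra1. Control 4 was the lowest control for 6 members (Il6, Lif, Osm, Il11, Il6ra and Osmr) and the highest for Ctf1 and Il11ra1, and control 2 was the lowest for 4 members and the highest for 3. ICI-myocarditis 3 also had the highest summed macrophage markers (52949 normalized counts, against 36163 and 40762) and the lowest summed heart muscle markers (652667, against 923255 and 1108530). Whether the cell make-up of that heart set these values was not tested.

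Levels of different genes were compared as normalized counts per kb of the longest GENCODE transcript. In controls Il6st came first at 975 ± 135 per kb (SD, n = 4), followed by Il11ra1 at 607 ± 146 and Lifr at 605 ± 60.7, which did not differ beyond their spread. Osmr followed at 229 ± 84.9 and Il6ra at 46.6 ± 11.5. In ICI-myocarditis the order from the top was Il6st at 969 ± 84.1 (SD, n = 3), Lifr at 518 ± 51.9, Il11ra1 at 432 ± 52.4, Osmr at 342 ± 93.9 and Il6ra at 133 ± 46.2 per kb. There the levels of Il11ra1 and Osmr lay within their spread of each other. Both near-ties depend on the length used. Over all annotated exons, Lifr held 30.0% and Il11ra1 19.4% of the receptor sum in controls. In ICI-myocarditis Osmr held 8.76% and Il11ra1 14.4% over all exons, against 14.2% and 18.2% by the longest transcript. Il6ra was thus the scarcest chain in every library, at 1.42% to 2.40% of the receptor sum per kb in controls and 4.45% to 7.36% in ICI-myocarditis. Over all annotated exons its mean shares were 2.60% and 7.47%.

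Among ligands, Ctf1 made up most of the signal of control hearts. Per kb it held 85.3% to 98.2% of the ligand sum in controls. In ICI-myocarditis 1, 2 and 3 it held 65.1%, 55.5% and 21.5%. The share of Lif was 1.44% to 7.32% in controls and 15.2% to 24.2% in ICI-myocarditis, and that of Osm was 0.37% to 3.58% and 11.8% to 26.0%. In ICI-myocarditis 3 Osm, Lif and Ctf1 were therefore of similar size, while in every control Ctf1 exceeded the other ligands together. These shares are a description of transcripts and carry no test.

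**Figure D3:**
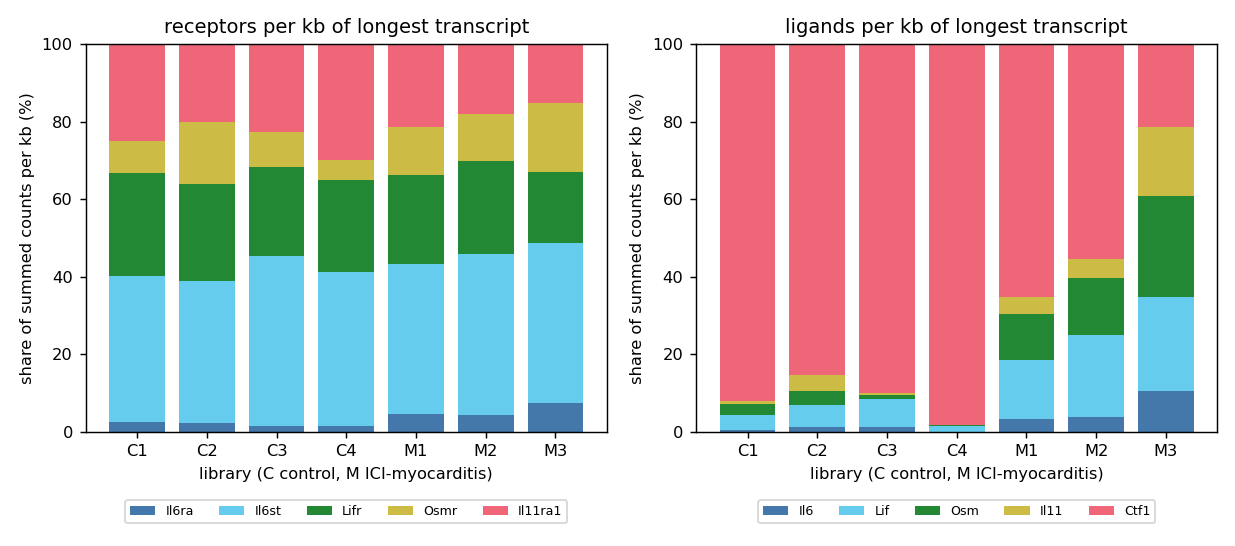
Share (%) of each gene in the summed normalized counts per kb of the 5 receptor genes (left) and the 5 ligand genes (right), 1 bar a library, with C1 to C4 for controls and M1 to M3 for ICI-myocarditis. Il6st holds about the same part of the receptor bars in both groups, whereas the Ctf1 part of the ligand bars is 85.3% or more in controls and 65.1% or less in ICI-myocarditis.

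Ratios between receptor chains within a library do not depend on scaling between libraries. Il6ra amounted to 6.35%, 6.26%, 3.43% and 3.56% of the normalized count of Il6st, uncorrected for length, in controls and to 12.1%, 10.7% and 17.7% in ICI-myocarditis, with no overlap. The mean log2 ratio was -4.41 ± 0.492 (SD, n = 4) in controls and -2.92 ± 0.378 (SD, n = 3) in ICI-myocarditis. Osmr amounted to 18.0%, 35.7%, 22.4% and 12.4% of Lifr in controls and to 31.0%, 29.2% and 55.4% in ICI-myocarditis. Control 2 exceeded the first pair of ICI-myocarditis libraries, so this balance overlapped between groups. Mean log2 ratios of Osmr to Lifr were -2.28 ± 0.638 and -1.44 ± 0.511.

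Other ligands and receptors of the family formed a list of 11 genes, of which 6 could be tested and 5 rose, against 11.7% of all genes tested. Il27 and Ebi3 encode the subunits of interleukin-27, which signals through gp130 and the product of Il27ra. Il27 rose from 3.26 ± 2.17 (SD, n = 4) to 67.8 ± 17.4 normalized counts (SD, n = 3) (log2 change 4.13, adjusted p = 0.00316 by limma, SE 0.521). Il27, like Osm, passed the filter only through the ICI-myocarditis libraries. Ebi3 rose from 22.0 ± 6.10 to 134 ± 55.3 (log2 change 2.52, adjusted p = 0.00457 by limma, SE 0.390). Clcf1 (1.62) and Il27ra (1.24), named after their values were seen, were called near the threshold (limma adjusted p = 0.0499 and 0.0468) and were lost in 13 and 12 of 18 alternatives. The 5 calls became 3 without any 1 of the ICI-myocarditis libraries or of controls 1, 3 and 4. Cntfr, the private receptor chain for ciliary neurotrophic factor, had 47.2 ± 19.4 and 23.3 ± 8.75 normalized counts (log2 change -0.97, adjusted p = 0.162 by limma). The remaining 5 genes lay under the filter, Il11ra2 and Il31 at 0 in every library.

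Of 8 genes that carry the signal from gp130, 2 rose, against 11.7% of all genes tested. Jak1 had 7087 ± 548 normalized counts in the controls and 6971 ± 624 in the hearts with ICI-myocarditis (log2 change -0.02, adjusted p = 0.954 by limma). Jak2 rose by 0.82 (adjusted p = 0.0359 by limma, SE 0.222), and was called in 10 of 18 alternatives. It was not called without ICI-myocarditis 2 or 3 or without control 1, 3 or 4. That left 1 call of 8, near the 11.7% over all genes with every library in. Those fits themselves called 914 to 1559 of all 15258 genes higher. Stat3, the main transcription factor downstream of gp130, had 6417, 5655, 5096 and 6007 normalized counts in the controls and 7761, 8639 and 11002 in the hearts with ICI-myocarditis. Its groups did not overlap, but its log2 fold change of 0.65 (SE 0.222) missed the threshold over all genes (adjusted p = 0.0810 by limma), with a call in 3 of 18 alternatives.

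Of 5 inhibitors, 3 rose, against 11.7% of all genes tested. Socs3, which binds gp130 and blocks its JAK kinases, had 237, 343, 119 and 93.8 normalized counts in the controls and 1005, 1608 and 2344 in the hearts with ICI-myocarditis. The groups were far apart, with a log2 fold change of 3.16 (adjusted p = 0.00411 by limma, SE 0.463). Socs1, a feedback inhibitor of interferon signals as well, rose by 4.55 (adjusted p = 0.00363 by limma, SE 0.610), and Ptpn6, a phosphatase of blood cells, by 2.91 (adjusted p = 0.00597 by limma, SE 0.485). Pias3, an inhibitor of STAT3, had 488 ± 96.4 and 508 ± 80.0 normalized counts (limma adjusted p = 0.877). Socs3, Socs1 and Ptpn6 were called in all 18 alternatives run.

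The shedding of IL-6 receptor depends on the proteases encoded by Adam10 and Adam17 and, for the latter, on Rhbdf1 and Rhbdf2. Of these 4 genes, 0 were called by limma, and edgeR, DESeq2 and limma-voom called 0 too, with 1 at an unadjusted p under 0.05. That gene was Adam17, with 1892 ± 148 normalized counts in the controls and 2673 ± 483 in the hearts with ICI-myocarditis (log2 change 0.49, adjusted p = 0.118 by limma, SE 0.189). Rhbdf2 had a log2 fold change of 0.59, Adam10 of 0.21 and Rhbdf1 of -0.04 (limma adjusted p = 0.265, 0.540 and 0.925).

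Genes known as targets of gp130 cytokines, many of which answer other inflammatory signals too, formed a list of 22. Of the 20 tested, 12 rose and 0 fell, against 11.7% higher and 4.00% lower over all genes tested. Saa3, 1 of those 12, passed the filter through its ICI-myocarditis libraries, with 1 of 4 controls at 10 normalized counts or more. The list had a median log2 fold change of 1.48 against -0.02 over all genes tested. Timp1, an inhibitor of matrix proteases, rose from 115 ± 88.1 to 2843 ± 586 normalized counts, a log2 change of 4.87 (adjusted p = 0.00251 by limma, SE 0.476). Serpina3n, an acute phase protease inhibitor, rose from 164 ± 44.5 to 2497 ± 2035 (log2 change 3.66, adjusted p = 0.00303 by limma, SE 0.450). Il4ra, the gene for the interleukin-4 receptor alpha chain, rose by 1.88 (adjusted p = 0.00811 by limma, SE 0.343). Lbp, an acute phase gene of the liver, had 277 ± 43.1 and 280.2 ± 97.8 normalized counts (limma adjusted p = 0.963). Without ICI-myocarditis 3 the list held 6 calls. Serpina3n belongs to a family of similar genes, so its reads may be shared.

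**Figure D4:**
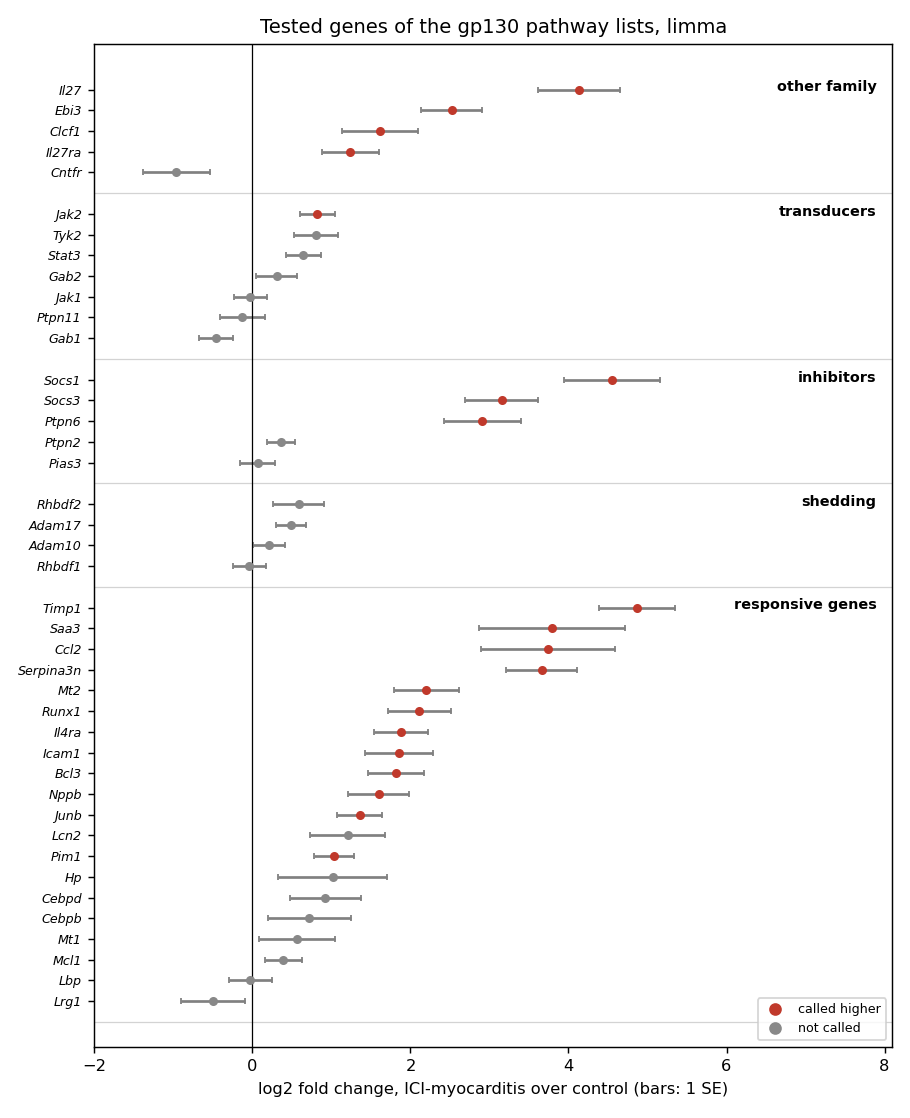
Log2 fold change of ICI-myocarditis over control (points, with bars of 1 SE) for 41 tested genes of the other family members, transducers, inhibitors, shedding proteases and responsive genes. Red points passed limma's adjusted threshold and grey points did not: 20 of the 41 genes shown passed, all of them higher.

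Markers of cells that could carry these transcripts were read beside the members. All 6 macrophage markers rose, with sums of 9785 to 14149 normalized counts in controls and 36163 to 52949 in ICI-myocarditis, and all 5 T cell markers rose. Neutrophils, a known source of Osm and carrier of Il6ra, had 4 of 5 markers in the table. Their sum was 9.07 to 93.8 in controls and 18.1 to 46.6 in ICI-myocarditis with S100a8 and S100a9 above the filter (limma adjusted p = 0.901 and 0.645), and Elane was at most 1.23 in any library. Fibroblast markers, with 1 of 6 called higher, summed to 25500 to 43343 in controls and 46024 to 81342 in ICI-myocarditis. The 1 called, Col1a1, was the largest part of the sum in every ICI-myocarditis library. It ranged from 7155 to 19786.5 in controls and from 23073 to 50515 in ICI-myocarditis. Tcf21 did not overlap between groups but was not called (limma adjusted p = 0.0824). Pdgfra, Dpt, Dcn and Lum overlapped (limma adjusted p from 0.373 to 0.877). Endothelial markers, with 3 of 5 called lower, summed to 22917 to 58073 and 14194 to 21324, and 2 of 5 mural cell markers were called lower. The part of these cells in the changes of Osm, Lif, Ctf1 and Il6ra was not tested.

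Genes with the pattern most like a member over the 7 libraries were found by the root mean square difference of log2 values scaled to mean 0 and SD 1. For Il6ra, the member with the lowest p, these were Axl, Rassf2, Thy1, Chsy1 and Ptprf, with differences from 0.0764 to 0.127. Axl, a receptor tyrosine kinase gene, had 5954, 4869, 3762 and 3412 normalized counts in the controls and 9449, 10776 and 18033 in the hearts with ICI-myocarditis. That is the same order of libraries as Il6ra except for the first pair of ICI-myocarditis hearts. For Il6st the nearest genes were Fbxo47, Smndc1, Zbtb38, Twsg1 and Tox3, at larger differences of 0.211 to 0.362. Fbxo47 had only 2.47 to 19.0 normalized counts, so its pattern rests on few reads a library. Since these genes were picked for their pattern over the same libraries, their differences between groups are set by the choice and are not tested.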

How the data were processed

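Bulk RNA-seq of 7 mouse hearts was used, 4 controls and 3 with ICI-myocarditis. The total RNA kit used marks strand, and sequencing was paired-end, per the labels' protocols. Reads were aligned with STAR 2.7.3 to GRCm38 (mm10), per the submitters' processing notes, and the counting program, annotation and use of strand are not given in the sources used here. The authors deposited normalized counts per gene, a signal in which reads are divided by a size factor for each library, with their own log2 fold changes, test score and p-values, per the file headers. Low values stepped by the worth of 1 read, and 100% of values in each library came out whole within 0.001 of a read. In control 1 a read was worth 1.01, so whole values say less there. Recovered reads served only for depth and alternatives.

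The main test was limma 3.58.1, run in R 4.3.3 with trend and robust variance on log2(normalized count + 1). Genes needed 10 normalized counts in 3 libraries or more, with Benjamini-Hochberg adjustment and a threshold of 0.05. Fold changes are on that scale and understate changes of low genes. Alternatives were pseudocounts, filters, scalings, edgeR 4.0.16, DESeq2 1.42.0, limma-voom, a replicate block, and each library left out. Tested on simulated data with 15195 genes, limma recovered 69.9% of 113 genes made to differ by 2 (log2). It recovered 1.2% of 83 made to differ by 1, so smaller changes were often missed there. Of the calls there, 6.98% with limma and 24.4% with DESeq2 were genes not made to differ. No other tested gene was made to differ, against 2397 genes called in the data. These rates therefore need not hold for the data, where smaller changes may still be missed.

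All 10 members are named, with the 3 lowest and the 1 highest p of each other list, and Jak1, Jak2, Stat3 and Socs3. Likeness was read for Il6st and the member with the lowest p, passing over predicted genes. Counts over the lists include 2 genes that are not reported here. Members and lists were chosen with earlier results of these data known. The labels do not say how animals were related, and p-values measure the spread between these libraries. In 27 rows gene names had turned into dates (0.143% of reads), and these rows were not removed before the tests.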

Additional observations from a re-analysis of the deposited data

How the results depend on the processing

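Leaving out 1 library moved the 2397 genes called to between 1080 and 3345, the 1787 higher to between 914 and 2253, the 610 lower to between 166 and 1092, the 4 member calls to between 1 and 4, and the 22 calls in the other lists to between 13 and 23. The total was 1546 without ICI-myocarditis 2, 1080 without ICI-myocarditis 3, 1509 without control 1 and 1300 without control 3. Limma-voom called 4038 genes, 1535 of them lower, DESeq2 called 1281 lower, and scaling by library total called 1669 higher and 311 lower, which put the median gene at 0.13 (log2) in place of -0.02. A filter of 50 normalized counts left 2 member calls, Ctf1 and Il6ra, because it took Lif and Osm out of the test. Differences near 0 changed sign. With scaling by library total they were 0.16 for Il6st, 0.14 for Jak1, 0.13 for Lbp and 0.12 for Rhbdf1. Lbp was 0.0155 with DESeq2, and Rhbdf1 was 0.10 with limma-voom. Leaving out 1 library gave -0.10 to 0.0655 for Il6st, -0.10 to 0.0201 for Jak1, -0.29 to 0.18 for Lbp, -0.0462 to 0.19 for Pias3 and -0.15 to 0.0583 for Rhbdf1. The cause was not tested.

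Deviations of same-numbered libraries correlated at -0.27, -0.21 and -0.08, and those of differently numbered libraries at -0.32 to 0.40. Values this few cannot show whether the replicate numbers pair the hearts. A replicate block over numbers 1 to 3, a fit that also leaves out control 4, called 378 genes lower and 2 members, with adjusted p = 0.0537 for Lif and 0.0848 for Ctf1 (limma). Without control 4 and with no block, 547 genes were called lower and 3 members were called, with adjusted p = 0.0376 and 0.0720. The differences were the same in both fits, at 0.0353 for Il6st, 0.0114 for Jak1 and -0.0234 for Pias3, so these changes of sign come with leaving out control 4. Changes of low genes such as Il6, Il11 and Osm are limited by a few reads a library.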
